A study of Mus musculus with 2 samples.

Results

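The cells described here were fibro-adipogenic progenitors (FAPs) of mouse muscle that were high in Cxcl14, which encodes a secreted chemokine, and that carried Hsd11b1, which encodes the enzyme that regenerates active glucocorticoid inside cells. A cell barcode counted as a FAP when it had at least 1000 unique molecular identifiers (UMIs, 1 for each captured RNA molecule), at most 5% of them mitochondrial, at least 1 Pdgfra UMI, at least 50 Dcn UMIs and fewer than 2 Tnmd UMIs. It counted as a Cxcl14-high FAP when it also had at least 10 Cxcl14 UMIs, at least 1 Hsd11b1 UMI and fewer than 3 Gdf10 UMIs. These criteria were met by 435 of 3028 FAPs, among 7658 barcodes in all. The 2089 FAPs with fewer than 3 Cxcl14 UMIs, called Cxcl14-low here, served as the comparison within each muscle.

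The data held 2 droplet libraries of sorted mononuclear cells from C57BL/6J mice, 1 of the quadriceps, a limb muscle, and 1 of the diaphragm, the respiratory muscle. Muscles from 10 mice in all were digested with collagenase B and dispase II, the cells of several animals were combined within each muscle, and viable cells were sorted on light scatter with no antibody or reporter. Neither age nor any treatment was given in the sources used here. Animals cannot be told apart within a library, so each muscle was 1 sample, a difference between muscles cannot be told apart from a difference between libraries, and no test across samples was possible. Cells of 1 library are not replicates. Every interval below is a 95% interval that covers counting error only, and the values of the 6 genes used by the criteria are given as a description of the choice.

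FAPs are fibroblast-like cells between muscle fibers that can become adipocytes or scar-forming cells. In many organs the fibroblasts include a Pi16 and Dpp4 bearing type of the outer connective tissue and other types, closer to the parenchyma, that make parts of the basement membrane, the thin sheet of type IV collagen, laminin, nidogen and perlecan under epithelia and around muscle fibers. Hsd11b1 needs NADPH made inside the endoplasmic reticulum by H6pd, and the cortisol or corticosterone it regenerates acts through the receptor encoded by Nr3c1.

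Reference letters are shown for 2 promoter regions of genes named in the results below, both from RefSeq on GRCm38.p6. Their part in the results was not tested. The 250 bases before the start of Cxcl14 lie on the minus strand at chr13:56296552-56296801 and overlapped no GENCODE gene. The 71 bases between Col4a4 and Col4a3, which encode type IV collagen chains and are transcribed away from each other, lie at chr1:82586850-82586920 and are shown on the minus strand, in the direction of Col4a4. Both were searched on both strands for the TATA box letters TATAAA, the CCAAT box in those letters and the GC box letters GGGCGG, and neither held a match, so there are no capitals.
Cxcl14: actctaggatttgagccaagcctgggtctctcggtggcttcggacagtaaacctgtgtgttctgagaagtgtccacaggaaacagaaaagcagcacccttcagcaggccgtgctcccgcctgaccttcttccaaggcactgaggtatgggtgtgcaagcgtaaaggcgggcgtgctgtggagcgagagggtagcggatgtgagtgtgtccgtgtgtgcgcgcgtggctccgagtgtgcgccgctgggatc
Col4a4 and Col4a3: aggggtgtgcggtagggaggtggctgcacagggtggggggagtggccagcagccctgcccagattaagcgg
Over all 32851 RefSeq promoter windows of 250 bases, 12.4% held the TATA box letters, 33.8% the CCAAT box and 32.7% the GC box letters on either strand. The 71-base stretch is shorter than those windows, so their shares are no match for it.

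Cxcl14-high FAPs made up 288 of 1681 FAPs in quadriceps (17.1%, exact binomial interval 15.4% to 19.0%) and 147 of 1347 in diaphragm (10.9%, interval 9.30% to 12.7%). Of all cells that passed the depth and mitochondrial limits they were 13.3% of 2171 in quadriceps and 8.83% of 1664 in diaphragm. The share was thus higher in the quadriceps library, with intervals that did not overlap. Among FAPs over the limit, 130 of 522 in quadriceps (24.9%, interval 21.2% to 28.8%) and 80 of 336 in diaphragm (23.8%, interval 19.4% to 28.7%) met the other criteria, and those intervals did overlap. The depth of the cells was much alike, with a median of 10808 UMIs in quadriceps and 12580 in diaphragm, beside 11442 and 13179 in Cxcl14-low FAPs. The median mitochondrial share was 3.68% and 4.13%, beside 3.59% and 3.63%. The libraries shared 5 barcodes, and 0 of them were Cxcl14-high FAPs.

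The identity of the cells was checked on genes outside the criteria. After every cell was thinned to 2000 UMIs, Cd34, a surface marker of FAPs, was seen in 80.9% of Cxcl14-high FAPs of quadriceps and 88.4% of those of diaphragm. In cells with no Pdgfra UMI and fewer than 5 Dcn UMIs, called FAP-marker-free here, it was seen in 7.38% and 0 of 43 cells, which allows a share of up to 6.98%. Those cells were shallower, with medians of 4109 and 6453 UMIs. Lum, which encodes the matrix proteoglycan lumican, was seen in 98.3% and 97.3% of Cxcl14-high FAPs. Most lists of markers of other cell types summed to low levels. The 8 endothelial genes summed to 3.33 counts per 1000000 UMIs (CPM) in quadriceps and 6.3 CPM in diaphragm, with Cdh5, Emcn and Cldn5 at 0. The 8 immune genes summed to 40.6 and 2.6 CPM, the 7 Schwann cell genes to 38.7 CPM in quadriceps, beside 95.7 CPM in Cxcl14-low FAPs, and 10.0 CPM in diaphragm, beside 9.51 CPM, with Sox10 at 0, the 6 satellite cell genes to 10.3 and 0.5 CPM with Pax7 and Myod1 at 0, and the 10 muscle fiber genes to 10.9 and 34.2 CPM. The 6 perineurial genes summed to 8.78 and 3.7 CPM, and all 5 adipocyte genes, Adipoq among them, were at 0 in both muscles. The 7 tenocyte genes reached 161.6 and 715.8 CPM, beside 124.1 and 1230.5 CPM in Cxcl14-low FAPs, mostly through Thbs4. The 9 smooth muscle and pericyte genes reached 285.1 and 42.6 CPM, beside 221.1 and 48.6 CPM, with the pericyte marker Rgs5 at 0 in Cxcl14-high FAPs. Cdh19, a Schwann cell cadherin of that list, was higher in Cxcl14-high FAPs, at 14.2 against 1.96 CPM in quadriceps and 6 against 5 UMIs in diaphragm (log2 folds of 2.36 and 1.61). The part of the Schwann cell, tenocyte and smooth muscle lists in the results was not tested.

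Cxcl14 varied widely among the chosen cells. In quadriceps a Cxcl14-high FAP held 10 to 371 Cxcl14 UMIs with a median of 48.5, and in diaphragm 10 to 226 with a median of 26. Summed over cells, its level was 5976 CPM in quadriceps and 3389 CPM in diaphragm, beside 17.0 and 10.9 CPM in Cxcl14-low FAPs. Hsd11b1 ranged from 1 to 27 UMIs per cell with a median of 7 in quadriceps, and from 1 to 26 with a median of 6 in diaphragm. Its level was 680 CPM against 57.4 CPM in quadriceps and 527 against 99.5 CPM in diaphragm. The criteria asked for a single Hsd11b1 UMI, and 60 quadriceps and 27 diaphragm cells that met the others had none. At 2000 UMIs per cell Hsd11b1 was seen in 8.32% of Cxcl14-low FAPs of quadriceps, below the 17.2% of FAP-marker-free cells. In diaphragm the same shares were 17.8% and 16.3%. Whether FAP-marker-free cells express Hsd11b1 was not tested, so these shares alone cannot tell expression in Cxcl14-low FAPs from background. Single Cxcl14-low FAPs held up to 18 Hsd11b1 UMIs in quadriceps and 21 in diaphragm.

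The gene names that label these cells include 4 that the criteria did not use. Smoc2, which encodes a matrix protein of basement membranes, was the most general of them. It had 0 to 239 UMIs per Cxcl14-high FAP of quadriceps with a median of 58.5, and 0 to 97 with a median of 28 in diaphragm, where Cxcl14-low FAPs had medians of 4 and 10. After thinning it was seen in 97.2% of Cxcl14-high FAPs of quadriceps and 91.2% of those of diaphragm, against 55.3% and 69.9% of Cxcl14-low FAPs. Its level was 5466 against 1279 CPM in quadriceps, a log2 fold of 2.09 (interval 2.06 to 2.13), and 2376 against 1050 CPM in diaphragm, a log2 fold of 1.18 (interval 1.13 to 1.23). Log2 folds here use 1 CPM added to both levels, while their intervals are those of the ratio of counts with nothing added.

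Mme, which encodes neprilysin, a peptidase of the cell surface that cuts small signaling peptides, marked the quadriceps cells more than those of the diaphragm. It was seen in 38.9% of Cxcl14-high FAPs of quadriceps (interval 33.2% to 44.8%) and 12.2% of those of diaphragm (7.42% to 18.7%) at 2000 UMIs, against 6.26% and 3.04% of Cxcl14-low FAPs and 0.410% and 0 of FAP-marker-free cells. The levels were 269 against 28.9 CPM and 55.8 against 12.6 CPM, with log2 folds of 3.17 and 2.06. Kcnk2, which encodes the mechanosensitive potassium channel TREK-1, had the opposite order of muscles in level, in both FAP groups, but not in fold. It reached 59.9 against 10.6 CPM in quadriceps and 152 against 49.4 CPM in diaphragm (log2 folds 2.39 and 1.60) and was seen in 9.38% and 22.4% of Cxcl14-high FAPs. Fbln7, which encodes a secreted fibulin, stood at 331 against 23.9 CPM in quadriceps, a log2 fold of 3.73 (interval 3.60 to 3.98). In diaphragm it stood at 73.2 against 44.8 CPM, a log2 fold of 0.70 (interval 0.43 to 0.98), so it did not reach 2-fold there and marked the quadriceps cells alone by that rule.

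All 4 genes were rarely seen together in 1 cell at that depth. Of Cxcl14-high FAPs thinned to 2000 UMIs, 68 of 288 in quadriceps and 8 of 147 in diaphragm showed 3 of the 4, and 6 and 0 showed 4. At least 1 was seen in all but 7 and 12 cells. In Cxcl14-low FAPs none of the 4 was seen in 449 of 1070 and 265 of 1019 cells, and in FAP-marker-free cells in 231 of 244 and 41 of 43.

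**Figure D1:**
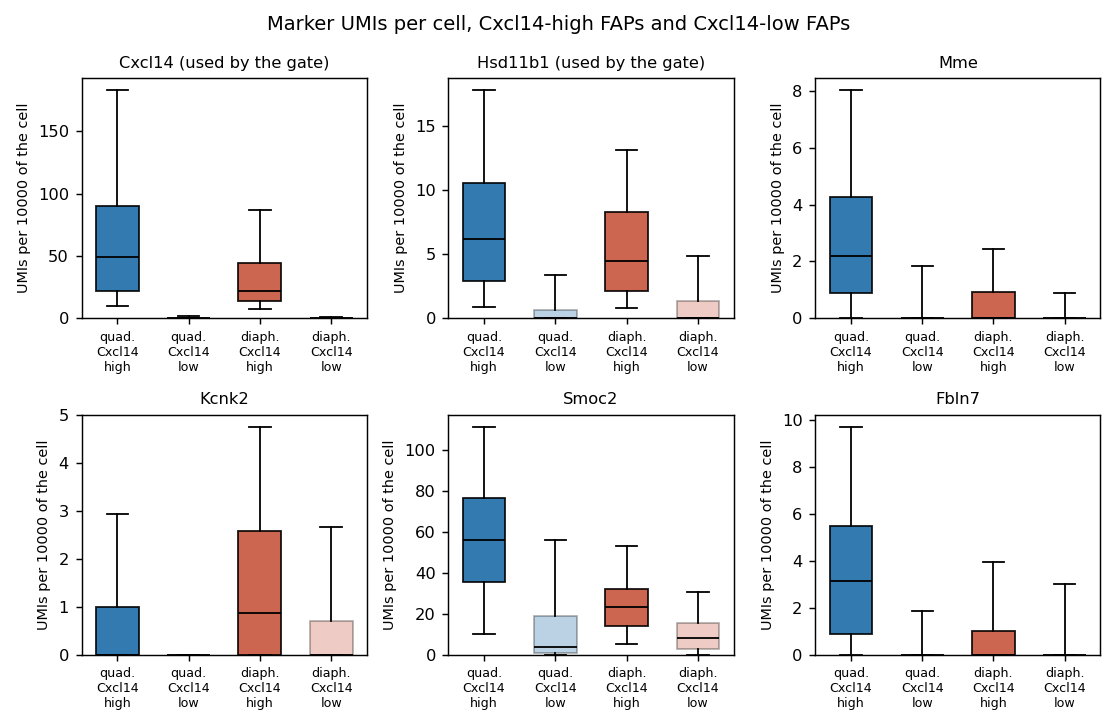
UMIs of the 6 naming genes per 10000 UMIs of a cell (vertical axes), in Cxcl14-high and Cxcl14-low FAPs of quadriceps (blue) and diaphragm (red); boxes span the quartiles with a line at the median, and whiskers reach the 5th and 95th percentiles of cells. Mme and Fbln7 have medians of 2.20 and 3.13 in quadriceps and 0 in diaphragm Cxcl14-high FAPs, while Kcnk2 has a median of 0 in quadriceps and 0.88 in diaphragm.

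Across the transcriptome, genes were compared when they reached 50 CPM in the higher group of each muscle, with the 6 criterion genes left out. A gene was called when it differed at least 2-fold in the same direction in both muscles. Of 2968 genes, 37 were called higher in Cxcl14-high FAPs (1.25%), 42 were called lower (1.42%), and 1 passed 2-fold in opposite directions (0.0337%). Taken by muscle, 151 of 3447 genes were past 2-fold higher (4.38%) and 157 lower (4.55%) in quadriceps, and 49 of 3143 higher (1.56%) and 66 lower (2.1%) in diaphragm. Folds were thus larger in quadriceps. Of the 2968 genes compared in both, the 37 shared higher genes were 31.6% of the quadriceps ones and 92.5% of the diaphragm ones, and the 42 shared lower genes were 42.4% and 82.4%. Over these genes the folds of the muscles had a Pearson r of 0.787 and a Spearman rho of 0.638, across genes that are not independent replicates and over cells chosen by the same criteria. The cell with most UMIs of a gene can carry a sum. Without that cell in each muscle, 32 of the 37 higher genes and 42 of the 42 lower genes still passed, and the 5 that did not (Adh1, Col15a1, H6pd, Plau and Slco2b1) had diaphragm log2 folds of 0.95 to 0.98. This check was chosen after seeing the data.

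**Figure D2:**
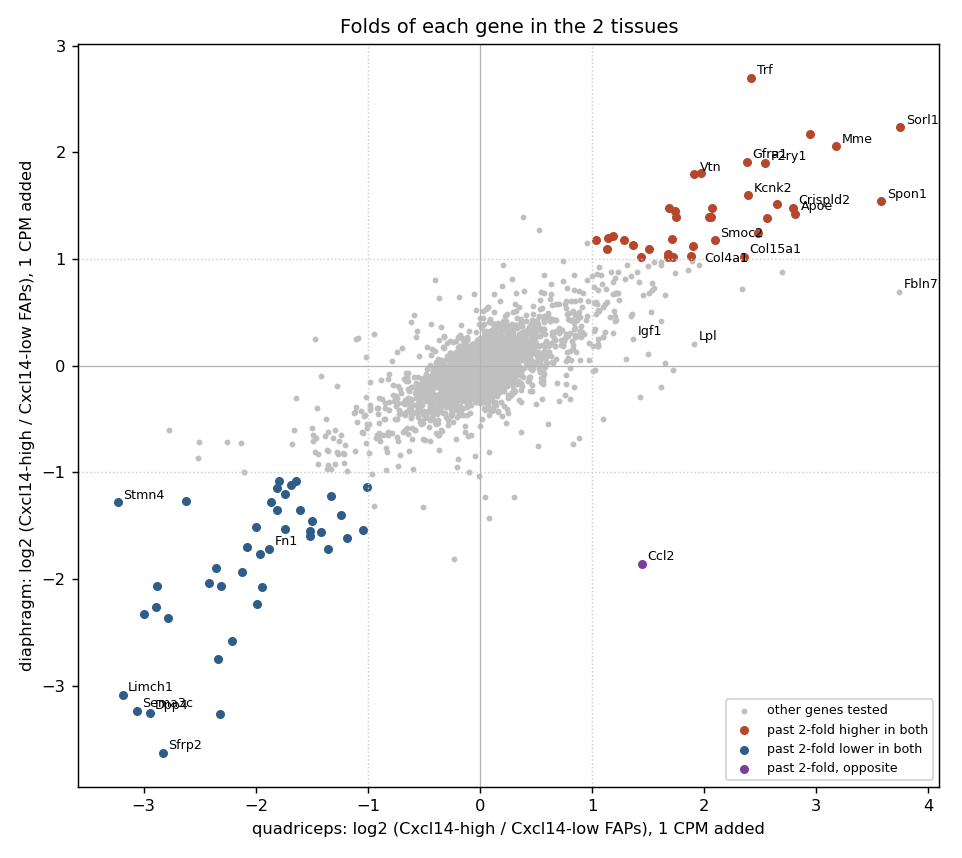
Log2 fold of Cxcl14-high over Cxcl14-low FAPs with 1 CPM added, quadriceps on the horizontal and diaphragm on the vertical axis, 1 point per gene compared in both muscles; dotted lines mark 2-fold. The 37 genes past 2-fold higher and the 42 past 2-fold lower lie in the upper right and lower left, Ccl2 lies alone in the lower right (its quadriceps value rests on 1 cell), and Fbln7 passes 2-fold in quadriceps but not in diaphragm.

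Basement membrane genes were the matrix group that leaned toward the Cxcl14-high FAPs. Of 29 listed genes 15 reached the level, and 4 were called higher and 0 lower, beside 1.25% and 1.42% of all genes. Smoc2 is one of them and also names the cells, so its place is no separate evidence. The median log2 fold of the 28 listed genes with a UMI was 0.84 in quadriceps and 0.27 in diaphragm, beside 0.01 and -0.06 over all genes with a UMI. Col15a1, the chain of a collagen that ties basement membranes to the interstitium (chr4:47208161-47313167), stood at 1194 against 233 CPM in quadriceps and 1231 against 605 CPM in diaphragm. These are log2 folds of 2.35 (interval 2.29 to 2.43) and 1.02 (interval 0.96 to 1.09). The diaphragm value was 0.98, under 2-fold, without the cell with most Col15a1 UMIs. Nid2, a nidogen that links laminin to type IV collagen (chr14:19751265-19811787), stood at 241 against 63.8 CPM and 121 against 55.0 CPM, log2 folds of 1.90 and 1.12.

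Type IV collagen chains were higher together in quadriceps. Col4a4 (chr1:82448423-82586849) stood at 118 against 35.9 CPM in quadriceps and 73.7 against 25.8 CPM in diaphragm, log2 folds of 1.69 and 1.48. Its head-to-head neighbor Col4a3, across the 71 bases shown above, had 52.4 against 13.2 CPM and 24.7 against 5.66 CPM. The log2 folds of Col4a3 were 1.91 (interval 1.67 to 2.30) and 1.95 (1.57 to 2.67), and it was not called because it stayed under 50 CPM in diaphragm. The genes from here to the end of the paragraph were chosen after their values were seen. Col4a1 and Col4a2, the common chains, stood at 2117 against 546 CPM and 924 against 255 CPM in quadriceps, with log2 folds of 1.95 and 1.85. In diaphragm they had 920 against 479 CPM and 348 against 187 CPM, with log2 folds of 0.94 and 0.90, short of 2-fold. Hspg2, the perlecan gene, and Lamb1, a laminin chain, followed the same order, with log2 folds of 1.41 and 1.61 in quadriceps and 0.79 and 0.42 in diaphragm. Other basement membrane genes did not move with them. Nid1 had log2 folds of 0.04 and -0.21, Lama4 0.22 and -0.04, Lamb2 -0.40 and -0.17, and Sparc -0.03 and -0.09.

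The interstitial matrix genes that were called were few in number and all lower. Of 19 listed interstitial collagen genes 13 reached the level, with 0 called higher and 1 lower, beside 1.25% and 1.42% of all genes, and the medians were 0.20 and -0.20. Col3a1 and Col1a2, chains of the main fibrils of muscle interstitium, had log2 folds of 0.20 and 0.14 in quadriceps and -0.47 and -0.17 in diaphragm. The called gene was Col14a1, a collagen of fibril surfaces, at 201 against 611 CPM and 286 against 734 CPM, log2 folds of -1.60 and -1.35. Of 20 elastic fiber genes 18 reached the level, with 0 called higher and 2 lower beside the same shares of all genes, Efemp1 (-1.86 and -1.28) and Emilin2 (-1.68 and -1.12), which encode a fibulin and a glycoprotein of elastic tissue. Ltbp4, which binds latent TGF-beta, had 0.28 and -0.10, and Fbln2 0.16 and -0.43. Of 11 small leucine-rich proteoglycans 6 reached the level, and Aspn, which encodes asporin, was the 1 called, at 277 against 741 CPM and 446 against 1318 CPM (-1.42 and -1.56).

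Among glucocorticoid genes, Hsd11b1 itself chose the cells. H6pd, which makes its cofactor (chr4:149979475-150009023), stood at 69.6 against 18.1 CPM in quadriceps and 64.2 against 30.9 CPM in diaphragm, log2 folds of 1.88 (interval 1.67 to 2.21) and 1.03 (interval 0.75 to 1.35). The diaphragm value was 0.98 without the cell with most H6pd UMIs. It was the 1 gene called among 2 of the 9 listed activation and receptor genes that reached the level. Nr3c1, the receptor, had 273 against 246 CPM and 204 against 200 CPM, log2 folds of 0.15 and 0.03. Of 20 listed glucocorticoid response genes 19 were analysed here, and 12 reached the level, with 0 called in either direction, beside 1.25% and 1.42% of all genes, and medians of 0.02 and -0.01. Tsc22d3, a hormone-induced regulator known as GILZ, was the highest of the named ones at 746 against 418 CPM and 645 against 394 CPM. Its log2 folds were 0.83 (interval 0.77 to 0.91) and 0.71 (interval 0.62 to 0.80), short of 2-fold. Klf9, a transcription factor induced by the hormone, had log2 folds of 0.63 and 0.21.

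G0s2, which encodes an inhibitor of the lipase ATGL, lies 8085 bases from Hsd11b1 on the same strand of chromosome 1 (chr1:193272161-193273217). It stood at 310 against 48.7 CPM in quadriceps and 324 against 113 CPM in diaphragm, log2 folds of 2.65 and 1.52. It belonged to the 23 adipogenic genes in the files, of which 8 reached the level and 2 were called higher, G0s2 and Apoe, with 0 called lower, beside 1.25% and 1.42% of all genes. Apoe, the lipid carrier apolipoprotein E, stood at 520 against 73.1 CPM and 276 against 102 CPM, log2 folds of 2.81 and 1.43. Lpl, lipoprotein lipase, was past 2-fold in quadriceps alone, at 1591 against 423 CPM (log2 fold 1.91, interval 1.85 to 1.96) and 1116 against 969 CPM in diaphragm (0.20, interval 0.14 to 0.27). Ebf1, a transcription factor of early adipogenesis, had -0.53 and -0.24, and the list medians were 0.34 and 0.12.

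The largest folds in both muscles, ranked by the smaller of the 2, included receptors, carriers and secreted matrix proteins. Trf, which encodes the iron carrier transferrin (chr9:103204001-103230444), led with 227 against 41.5 CPM in quadriceps and 349 against 52.9 CPM in diaphragm, log2 folds of 2.42 and 2.70. Its UMIs were very uneven. Only 103 of 288 Cxcl14-high FAPs in quadriceps and 47 of 147 in diaphragm had any, and 1 diaphragm cell held 300 of the 663 UMIs (45.2%) while 1 quadriceps cell held 139 of 749 (18.6%). Without those cells the log2 folds were 2.13 and 1.85. Sorl1, a sorting receptor, stood at 59.9 against 3.53 CPM and 62.1 against 12.4 CPM (3.75 and 2.23).

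Several of the other leading genes encode receptors. Gfra1, the co-receptor for the nerve growth factor GDNF, stood at 112 against 20.7 CPM and 51.6 against 13.0 CPM, log2 folds of 2.38 and 1.91. Its signaling partner Ret had 131 against 42.1 CPM and 73.7 against 37.9 CPM, log2 folds of 1.62 and 0.94 (interval 0.68 to 1.23), and Gdnf itself had 0 UMIs in both groups of both muscles. Of the 17 GDNF and neurotrophin genes 3 reached the level, with 1 called higher and 0 lower, beside 1.25% and 1.42% of all genes. P2ry1, a receptor for extracellular ADP, had log2 folds of 2.54 and 1.90, and Lifr, the receptor of leukemia inhibitory factor, 2.07 and 1.48.

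Other called genes encode secreted proteins and enzymes, and their list counts stand beside 1.25% higher and 1.42% lower among all genes. Vtn, the adhesion protein vitronectin, stood at 252 against 66.3 CPM and 189 against 53.7 CPM (1.91 and 1.80). Spon1, the matrix protein F-spondin, stood at 102 against 7.61 CPM and 112 against 37.8 CPM (3.58 and 1.54). Of 25 BMP genes 12 reached the level. Bmper, a BMP-binding protein, was called higher at 122 against 30.4 CPM and 85.3 against 23.6 CPM (1.97 and 1.81), as was the ligand Bmp5 (1.04 and 1.18), while Nbl1, a BMP antagonist, was called lower at 342 against 707 CPM and 417 against 1214 CPM (-1.05 and -1.54). Of 17 retinoid genes 5 reached the level and 2 were called higher with 0 lower, the vitamin A enzymes Aldh1a1 (1.36 and 1.13) and Adh1 (1.44 and 1.02, with 0.96 in diaphragm without the cell with most Adh1 UMIs). Thbs1, a matrix protein that activates latent TGF-beta, was the 1 called among 9 of 17 TGF-beta genes that reached the level, at 165 against 71.7 CPM and 332 against 143 CPM (1.19 and 1.21).

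Further called genes are given here that were chosen after their values were seen. Crispld2, a secreted protein, stood at 790 against 113 CPM in quadriceps and 623 against 223 CPM in diaphragm (2.79 and 1.48). Steap4, a metal reductase, stood at 446 against 74.9 CPM and 252 against 96.0 CPM (2.56 and 1.38). Ggt5, an enzyme that converts leukotriene C4, had 2.48 and 1.25. Dio2, which activates thyroid hormone inside cells, had log2 folds of 1.71 (interval 1.49 to 2.05) and 1.18 (interval 0.94 to 1.47). Spry1, an inhibitor of growth factor signaling, had 1.51 and 1.10.

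The cells were not uniform in these genes. Col15a1 was present in 286 of 288 Cxcl14-high FAPs of quadriceps and in 147 of 147 of diaphragm, with medians of 12 and 14 UMIs and highest values of 60 and 77. Cxcl14-low FAPs had medians of 1 and 6. Apod was present in 273 of 288 and 122 of 147 cells with medians of 7 and 3, and single cells reached 392 and 174 UMIs. Mgp, which encodes an inhibitor of calcification, ranged from 0 to 519 UMIs in quadriceps with a median of 13, and from 2 to 262 in diaphragm with a median of 45. The Trf median was 0 in both muscles, so most of these cells had no Trf UMI, while Col15a1 was seen in nearly every one.

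Genes of the Pi16 and Dpp4 bearing fibroblast type were the group most often lower. Of 22 listed genes 17 reached the level, and 11 were called lower and 0 higher, beside 1.42% of all genes lower. The list medians were -1.94 in quadriceps and -1.62 in diaphragm. Dpp4, a surface peptidase, had 139 UMIs in the Cxcl14-high FAPs of quadriceps and 16 in those of diaphragm, at 42.1 against 331 CPM and 8.42 against 88.8 CPM. Its log2 folds were -2.95 (interval -3.23 to -2.73) and -3.25 (interval -4.21 to -2.69). Sema3c, a secreted guidance protein, stood at 74.2 against 627 CPM in quadriceps and had 38 UMIs in the Cxcl14-high FAPs of diaphragm, with log2 folds of -3.06 and -3.24, and Limch1, an actin-associated protein, at 11.5 against 113 CPM and 5.79 against 56.6 CPM (-3.19 and -3.08). Anxa3, an annexin, had -2.41 and -2.04, Efhd1, a calcium-binding protein, -2.99 and -2.33, Fn1, the fibronectin gene, -1.88 and -1.72, Cd248, the surface protein endosialin, -2.00 and -1.51, and Pcolce2, an enhancer of procollagen processing, -1.99 and -2.23. Of genes outside the list, Pamr1 had -2.34 and -2.75, Lurap1l -2.89 and -2.26, Mustn1 -2.88 and -2.07, and the interferon-inducible Ifi27l2a -2.31 and -2.07.

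Pi16 itself did not follow Dpp4 in both muscles. In quadriceps it stood at 463 against 3167 CPM, a log2 fold of -2.77 (interval -2.85 to -2.70), and at least 3 Pi16 UMIs were present in 62 of 288 Cxcl14-high FAPs (21.5%) against 672 of 1070 Cxcl14-low FAPs (62.8%). In diaphragm it stood at 2447 against 3726 CPM, a log2 fold of -0.61 (interval -0.65 to -0.56), and at least 3 UMIs were present in 138 of 147 (93.9%) and 955 of 1019 cells (93.7%). At least 3 Dpp4 UMIs were present in 1 of those 147 cells and in 175 of the 1019 Cxcl14-low FAPs (17.2%), so most Pi16-bearing FAPs of either group in diaphragm had little Dpp4. Of the 22 Wnt genes, 5 reached the level, with 0 called higher and 2 lower, beside 1.25% and 1.42% of all genes. These were the secreted Wnt modulators Sfrp2, at 32.1 against 234 CPM and 7.37 against 103 CPM (-2.83 and -3.63), and Sfrp4, at 43.0 against 219 CPM and 14.2 against 146 CPM (-2.32 and -3.27).

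**Figure D3:**
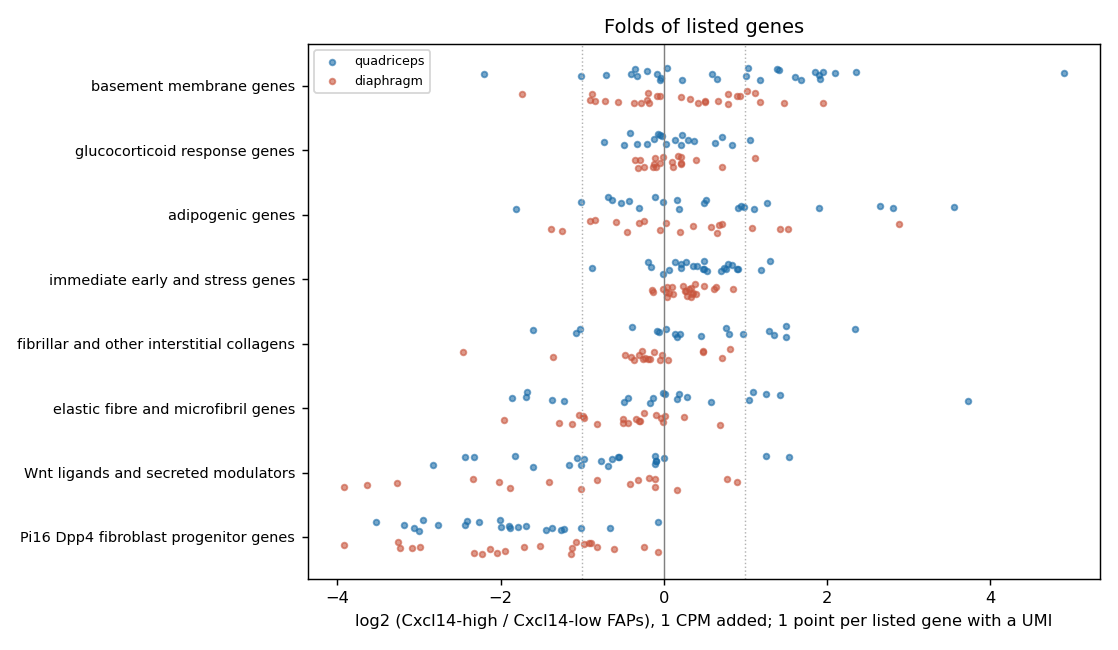
Log2 fold of Cxcl14-high over Cxcl14-low FAPs with 1 CPM added (horizontal axis) for the members of 8 gene lists, 1 point per listed gene with a UMI, quadriceps in blue and diaphragm in red; dotted lines mark 2-fold, and genes under 50 CPM are shown too. The Pi16 and Dpp4 list lies left of 0 with medians of -1.94 and -1.62, and the basement membrane list leans right in quadriceps with a median of 0.84.

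The study names human FAP subtypes by LUM and FBN1 and reports both subtypes in these 2 mouse muscles as well. Here 9 mouse genes stood for the subtypes, a choice made for this comparison. Of the 5 LUM+ genes, Cxcl14 chose the cells, Smoc2 and Col15a1 were called higher, and Lum and Apod passed 2-fold in 1 muscle each. Lum stood at 2890 against 1017 CPM in quadriceps and 2629 against 1642 CPM in diaphragm (1.51 and 0.68). Apod, a lipid carrier, stood at 1508 against 1049 CPM and 592 against 244 CPM (0.52 and 1.27, or 1.04 in diaphragm without the cell with most Apod UMIs). Of the 4 FBN1+ genes, Pcolce2 was called lower, while Fbn1, the fibrillin gene, had -1.36 and -0.97, Mfap5 -1.23 and -0.82, and the crosslinking enzyme Loxl1 -0.49 and -0.30.

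Marker genes of other FAP groups in these muscles were mostly rarer in Cxcl14-high FAPs. At least 3 Sbsn UMIs were present in 4 of 288 Cxcl14-high FAPs in quadriceps against 225 of 1070 Cxcl14-low FAPs, and in 1 of 147 against 72 of 1019 in diaphragm. Stmn4 reached that count in 6 and 13 cells against 240 and 185, Clu in 10 and 6 against 147 and 113, and Prg4, the joint lubricant, in 39 and 24 against 395 and 283. Exceptions were Meox1, in 53 of 147 diaphragm Cxcl14-high FAPs (36.1%) against 24.7%, and Sfrp1, in 45 of 288 of quadriceps (15.6%) against 4.39% and in 50 of 147 of diaphragm (34.0%) against 29.3%. Col6a5 reached that count in 2 quadriceps cells against 1 Cxcl14-low FAP, and in 15 of 147 diaphragm cells (10.2%) against 12.5%. Tnfaip6 differed by muscle, with 10.1% against 8.04% in quadriceps and 25.2% against 38.3% in diaphragm. FAPs with at least 10 Cxcl14 and at least 3 Gdf10 UMIs were kept out by the criteria, and numbered 108 in quadriceps and 40 in diaphragm. In these cells Hsd11b1 stood at 173 and 147 CPM and Mme at 72.0 and 9.1 CPM. Sfrp1, a Wnt modulator, stood at 260 and 796 CPM against 106 and 318 CPM in Cxcl14-high FAPs. Apod was also higher in them, at 2163 and 895 CPM against 1508 and 592 CPM. Trf stood at 65.6 and 301 CPM against 227 and 349 CPM, where 1 diaphragm Cxcl14-high FAP held 300 of 663 Trf UMIs. Fbln7 stood at 160 and 68.9 CPM against 331 and 73.2 CPM.

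Hsd11b1 and Mme rose by degrees with Cxcl14, and Mme and Smoc2 showed no gap at the threshold. Cells just inside it, with 10 to 12 Cxcl14 UMIs (20 in quadriceps), had 377 CPM of Hsd11b1, 154 of Mme and 3754 of Smoc2. Cells just outside, with 7 to 9 UMIs and the same other criteria (19 in quadriceps), had 417, 172 and 3722 CPM. In diaphragm the same values were 420, 68.7 and 1827 CPM inside and 382, 59.3 and 2011 CPM outside. Both groups had to hold at least 1 Hsd11b1 UMI, so its likeness across the threshold is partly set by the criteria. In quadriceps Apod, Pi16 and Mgp did differ there, at 843, 631 and 3473 CPM inside and 338, 265 and 1908 CPM outside. In diaphragm these genes had 333, 1748 and 3915 CPM inside and 270, 2249 and 3320 CPM outside, so Pi16 had the opposite order. When all FAPs were binned by Cxcl14 per 10000 UMIs of the cell, Mme in quadriceps was 25.2 CPM at 0, 49.1 CPM up to 3, 76.9 CPM from 3 to 10, 126 CPM from 10 to 30 and 262 CPM from 30 upward. In diaphragm it went from 10.9 to 56.1 CPM over the same bins. Hsd11b1 went from 50.1 to 637 CPM in quadriceps and from 87.3 to 561 CPM in diaphragm. Fbln7 went from 18.8 to 347 CPM in quadriceps, and from 43.0 to 82.1 CPM in diaphragm. Sema3c went the other way, from 670 to 54.7 CPM and from 208 to 10.0 CPM. Trf in diaphragm was 416 CPM in the bin from 10 to 30 and 175 CPM in the last bin. Without the cell with most Trf UMIs in each bin, 1 of which held 300 of 562, the values were 197 and 128 CPM.

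**Figure D4:**
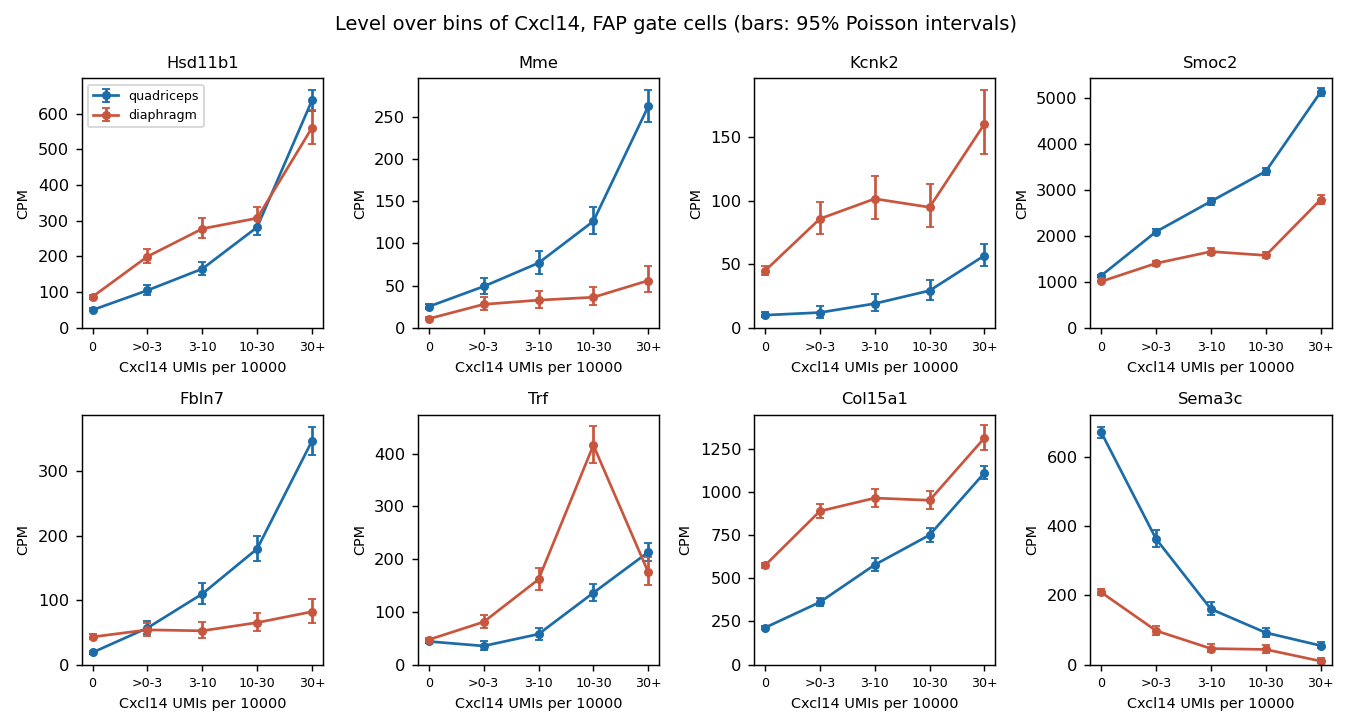
Level in CPM (vertical axes, each from 0) of 8 genes over FAPs binned by Cxcl14 UMIs per 10000 UMIs of the cell (horizontal axes), quadriceps in blue and diaphragm in red, with exact Poisson 95% intervals as bars. Hsd11b1, Mme, Smoc2 and Fbln7 are higher in each next bin in quadriceps, from 50.1 to 637 CPM for Hsd11b1, while Sema3c is lower in each next bin of both muscles.

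Chemokine genes were few at this level. Of 21 listed genes 5 reached it, and the calls below stand beside 1.25% higher and 1.42% lower among all genes. Ccl11, eotaxin, which draws eosinophils, was called higher at 1934 against 880 CPM in quadriceps and 795 against 373 CPM in diaphragm (1.13 and 1.09). Ackr3, a decoy receptor that clears CXCL12, was called lower at 324 against 654 CPM and 259 against 570 CPM (-1.01 and -1.13). Ccl2, which draws monocytes, passed 2-fold in opposite directions. It stood at 280 against 103 CPM in quadriceps and 28.9 against 108 CPM in diaphragm, log2 folds of 1.44 and -1.86. The quadriceps value rests on 1 cell with 504 of the 926 Ccl2 UMIs of the Cxcl14-high FAPs. Without it the log2 fold was 0.33, under 2-fold, and in diaphragm without the Cxcl14-low cell with most Ccl2 UMIs it was -1.56.

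Immediate early and stress genes, which cells switch on fast when disturbed, were measured beside these results. Of 24 listed genes 19 reached the level and 0 were called in either direction in both muscles, beside 1.25% and 1.42% of all genes. The list medians were 0.49 in quadriceps and 0.28 in diaphragm. Hspa1a and Hspa1b, near-identical chaperone genes whose reads may be split between them, had log2 folds of 0.79 and 0.73 in quadriceps and 0.50 and 0.33 in diaphragm. In quadriceps 2 of the list passed 2-fold, Egr1 (1.19) and Fosb (1.31, or 0.97 without the cell with most Fosb UMIs), and in diaphragm 0 did. Among all genes 4.38% were past 2-fold higher in quadriceps and 1.56% in diaphragm. The part of this in the other results was not tested.

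The last comparison set Cxcl14-high FAPs of diaphragm against those of quadriceps. Of 3359 genes at 50 CPM or more in the higher muscle, 123 were past 2-fold higher in diaphragm (3.66%) and 96 in quadriceps (2.86%). The median log2 fold over genes was -0.13, and with libraries scaled to a median ratio of 1 the counts were 143 and 69. Of the 123 diaphragm genes 99 also passed 2-fold in the same direction between Cxcl14-low FAPs, as did 44 of the 96 quadriceps genes, in the same libraries. Among all 3333 genes at that level in Cxcl14-low FAPs, 4.65% were past 2-fold higher in diaphragm and 3.33% in quadriceps. Without the cell with most UMIs of each gene in the higher muscle, 113 of the 123 and 87 of the 96 still passed 2-fold.

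The quadriceps side was led by Hox genes and limb patterning factors. Hoxc10, a posterior Hox gene, had 298 UMIs in quadriceps and 0 in diaphragm, at least 57.1-fold higher, and Hoxc9 had 183 and 0, at least 35.1-fold higher, each against a floor of 3 counts over the diaphragm cells. Hoxc8 had 168 UMIs and 1, a ratio of 96.6 (interval 17.1 to 3838). Shox2, a limb patterning factor, had 310 UMIs and 3, a ratio of 59.4 (interval 20.1 to 290), and Tbx15, another, 175 and 2, a ratio of 50.3 (interval 13.7 to 419). In Cxcl14-low FAPs the log2 folds of Shox2 and Tbx15 were -4.35 and -4.67, beside -5.20 and -4.72 here. Lrrtm3, a synaptic adhesion protein, and Dkk2, a Wnt antagonist, had -4.29 and -4.22 here, beside -1.57 and -0.94 in Cxcl14-low FAPs, and the smooth muscle actin gene Acta2 had -4.17 beside -2.66.

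The diaphragm side was led by genes that include the stress-responsive transcription factors Atf3 and Fos and the cytokine feedback inhibitor Socs3. Atf3 stood at 596 against 30.6 CPM, a log2 fold of 4.24, Fos at 3435 against 330 CPM (3.38), Socs3 at 674 against 66.0 CPM (3.33) and Gadd45b at 315 against 33.9 CPM (3.18). The chaperone partner Dnaja4 (3.24), the glycolytic enzyme Hk2 (3.63) and the pentraxin Ptx3 (3.59) were also among the 8 largest. For Ptx3 1 diaphragm cell held 95 of 118 UMIs, and its log2 fold without that cell was 1.34. The folds of these 7 genes in Cxcl14-low FAPs ran from 2.23 for Ptx3 to 4.41 for Atf3. Col6a5, a type VI collagen chain, was higher in diaphragm by 3.23 in Cxcl14-high and 5.12 in Cxcl14-low FAPs.

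The naming genes differed between muscles in both directions. Mme was lower in diaphragm (log2 fold -2.25, interval -2.57 to -1.98, beside -1.13 in Cxcl14-low FAPs), as was Fbln7 (-2.16, interval -2.44 to -1.92), which was higher in diaphragm by 0.88 among Cxcl14-low FAPs. Smoc2 was lower by less (-1.20 beside -0.28), and Kcnk2 was higher in diaphragm in both groups (1.32 and 2.12). Cxcl14 and Hsd11b1, which chose the cells in both muscles, had log2 folds of -0.82 and -0.37.

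**Figure D5:**
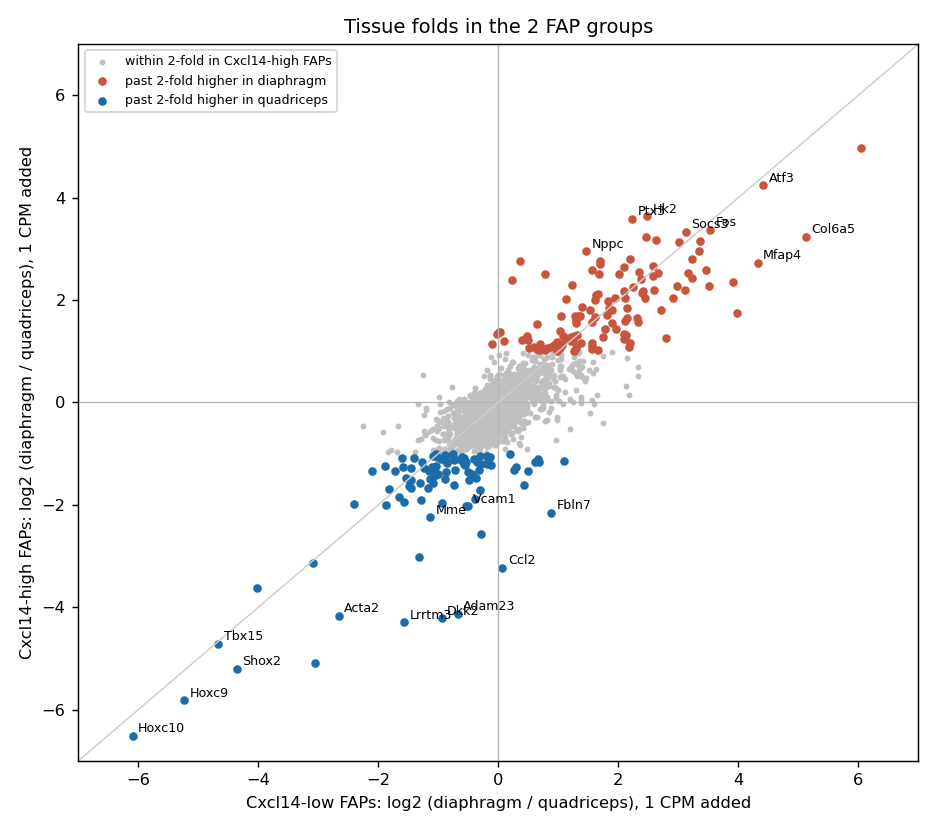
Log2 fold of diaphragm over quadriceps with 1 CPM added in Cxcl14-low FAPs (horizontal axis) and Cxcl14-high FAPs (vertical axis), 1 point per gene at 50 CPM or more in the higher muscle of the Cxcl14-high FAPs; the diagonal marks equal folds. Atf3, Fos, Socs3, Hoxc10 and Hoxc9 lie near the diagonal, while Fbln7, Dkk2 and Lrrtm3 lie well below it, as does Ccl2, where 1 quadriceps cell holds 504 of 926 UMIs.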

How the data were processed

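Single-cell RNA was measured in 2 libraries of C57BL/6J mouse muscle cells. The deposited values were raw UMI counts of each gene in each barcode. Per the submitters' processing notes, the authors produced them with Cell Ranger 3.0.0 on the mm10 (GRCm38) build. Seurat is also listed there, but no normalised values were used here. The strand setting of the counting was not given in the sources used here.

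The members and gene lists were chosen with earlier results of these data known. Cells were selected on UMI counts as described above. UMIs were summed over the cells of a group and scaled to CPM, with exact Poisson intervals. Before log2 folds were taken 1 CPM was added as a pseudocount, and calls needed a minimum of 50 CPM in the higher group and a threshold of 2-fold. Shares had exact Clopper-Pearson 95% intervals, and a count of 0 was given a limit of 3 counts. To compare shares, cells were thinned to 2000 UMIs, which left out 15 cells of shallow depth, all of them FAP-marker-free. Gene positions came from GENCODE M21 (27645 of 27998 IDs matched), and promoter letters from RefSeq on GRCm38.p6 (85 of 125 named genes had a window). The text names the naming and criterion genes, the 12 largest called folds per direction, the called and most abundant members of each list, and the 8 largest tissue folds per direction. Other genes were named after their values were seen. Genes with no proper name were counted, not named. One listed gene was not analysed here. One result under these rules is not reported here.

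Doublets were not removed, and Scrublet was run as an alternative. No model or test across samples was fitted, since there was 1 library per muscle. Scripts were tested on simulated counts, with Python 3.11.15, numpy 2.4.6, scipy 1.17.1, pandas 2.3.3 and scanpy 1.11.5.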

Additional observations from a re-analysis of the deposited data

Results flagged for a closer look

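Ccl2, a monocyte chemokine, was the 1 gene of 2968 past 2-fold in opposite directions in the muscles. Its log2 fold of Cxcl14-high over Cxcl14-low FAPs was 1.44 in quadriceps and -1.86 in diaphragm. In quadriceps 1 cell held 504 of the 926 Ccl2 UMIs of the Cxcl14-high FAPs, and without it the log2 fold was 0.33. With the criteria set per 10000 UMIs of a cell it was 0.21. The diaphragm value was -1.56 without the Cxcl14-low cell with most Ccl2 UMIs. The pass of 2-fold in quadriceps thus rests on 1 cell, while the signs stayed opposite without it. The difference was not tested, since each muscle was 1 library.

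Barcodes with over 5% mitochondrial UMIs were used in no main comparison, only in the setting with no mitochondrial limit. Of these, 130 in quadriceps and 80 in diaphragm met every other criterion of Cxcl14-high FAPs, beside the 288 and 147 that were kept. Why such barcodes were common among FAPs over the limit was not tested.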

How the results depend on the processing

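No paired analysis was possible because each muscle had 1 library. For the same reason no library could be left out. The share of FAPs that were Cxcl14-high depended on the criteria. In quadriceps and diaphragm it was 14.3% and 7.05% with at least 20 Cxcl14 UMIs, 20.7% and 12.9% with no Hsd11b1 criterion, and 20.5% and 13.1% with no Gdf10 criterion. With no mitochondrial limit it was 13.5% in diaphragm. With no Gdf10 criterion Gdf10 turned, to log2 folds of 0.81 and 0.33, because the criterion itself keeps Gdf10 low. The minimum level set the counts of genes. At 10 CPM 84 genes were higher and 114 lower in both muscles, and 263 were higher in diaphragm and 321 in quadriceps. With no minimum these were 156, 266, 649 and 881. In the other 13 settings of that comparison, 26 to 42 genes were higher and 38 to 51 lower in both muscles. One of them, leaving out the cell with most UMIs of each gene, was added after seeing the data, as was the same check between muscles. The genes that went under 2-fold in a muscle in at least 1 setting, among the called genes named, were Ackr3, Adh1, Aldh1a1, Bmp5, Ccl11, Cd55, Clu, Col15a1, H6pd, Nbl1, Nid2 and Thbs1. Ptx3, higher in diaphragm by 3.59, had 1.48 in cells of 5000 to 20000 UMIs. With no Gdf10 criterion 27 of the 37 higher genes were kept, and with all other FAPs as the comparison 26 were. Scrublet called 98 quadriceps and 4 diaphragm barcodes, 1 and 0 of them Cxcl14-high FAPs, and leaving them out kept all 37 and 42 genes. The diaphragm call rate of 0.160% gives no check on doublets there.

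Shares of cells with a UMI moved with depth. Thinned to 1000 UMIs, the share with Mme was 27.8% in quadriceps and 4.76% in diaphragm, and in quadriceps it was 93.4% for Smoc2 and 25.7% for Fbln7. With no thinning they were 81.6% and 46.9% for Mme, 35.8% and 65.3% for Kcnk2, 99.7% and 98.6% for Smoc2, and 80.9% and 39.5% for Fbln7. There were 3242 values for single genes in settings that keep the cell with most UMIs. Of these, 2744 stayed within their interval or close to the main value, and 496 moved further. The other 2, those of Gdf10, went from past 2-fold to the opposite sign. Folds under 2-fold that changed sign were not counted among these 2. Ptx3 in diaphragm, for example, had a log2 fold of Cxcl14-high over Cxcl14-low FAPs of 0.28, and of -1.99 at the lowest.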

Other observations

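Other listed genes were described in the same way, and their list counts stand beside 1.25% higher and 1.42% lower among all genes. Of 13 IGF genes 8 reached the level and 0 were called in both muscles. Igf1, a growth factor for muscle, had log2 folds of Cxcl14-high over Cxcl14-low FAPs of 1.36 in quadriceps and 0.25 in diaphragm, Igfbp5 -2.51 and -0.72, Igfbp6 -1.26 and -0.70, and Igfbp7 1.04 and 0.48, which are 4 genes of growth factor signaling past 2-fold in quadriceps and not in diaphragm. Of 21 PDGF, VEGF and angiopoietin genes 7 reached the level and 0 were called. Angptl1, a secreted angiopoietin-like protein, stood at 690 against 225 CPM in quadriceps and 861 against 987 CPM in diaphragm. Of 19 membrane peptidase and protease genes 13 reached the level, with Mme called higher and Dpp4 lower. Of 16 complement genes 7 reached the level, with Cd55, which shields cells from complement, called lower (-1.79 and -1.08) and 0 called higher. C3, the central complement protein, had -0.74 and 0.13. Of 17 channel genes Kcnk2 was the 1 that reached the level.

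Some genes that stayed under 50 CPM in at least 1 muscle are given here, chosen after their values were seen. Lamc3, a laminin chain, had 43.3 against 0.471 CPM in quadriceps and 1 UMI in each group of diaphragm. Ntf3, a neurotrophin, had 96.5 against 29.4 CPM in quadriceps and 87 against 193 UMIs in diaphragm (log2 folds 1.68 and 1.64).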
